A study of Mus musculus with 6 samples.

Results

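The genes described here are 10 inflammasome components and inflammatory cytokines, chosen by symbol: Nlrp3, Pycard, Casp1, Aim2, Il1b, Il18, Il1a, Il6, Il10 and Csf1. The arrays held 16 probes for them among 56605 probes for transcripts, and each of the 10 genes had at least 1 probe. All spleens were from females of the NOD strain, in which autoimmune diabetes arises spontaneously, so every sample shares that background. MOTS-c, a small peptide whose reading frame lies in the mitochondrial genome, was injected intraperitoneally at 0.5 mg/kg/day from 6 weeks of age, and the vehicle mice received a scrambled peptide. The organs were collected at age 18 weeks, 16 to 18 h after the last food. There were 3 samples in each group, named here MOTS-c 1 to 3 and vehicle 1 to 3, each read on its own 1-colour Agilent array. Nothing in the labels states whether each sample is a different mouse, so the p-values speak only of the spread among these arrays.

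Inflammasomes are protein platforms that form in the cytosol of macrophages, dendritic cells and neutrophils when a sensor detects damage or infection. The sensor recruits the adaptor ASC, which gathers and activates caspase-1. Caspase-1 then cuts the precursors of interleukin-1β and interleukin-18 into their active forms and opens gasdermin pores in the cell membrane. Much of this control acts on proteins, so transcript levels report how much of each part a tissue can make and not whether an inflammasome was active. In the spleen, myeloid cells are among the sources of these transcripts. Interleukin-10 is also made by B and T cells, and Csf1 mainly by stromal and endothelial cells. Which cells gave the values below was not tested.

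Levels are given as log2 of the processed signal after subtracting the 75th percentile of the same array, and 0 therefore marks that percentile. A probe was tested if, in 1 group or both, each of the 3 arrays read it well above background. That left 14 of the 16 probes, for 9 of the 10 genes, among 33734 probes tested. The difference between groups was tested with limma, and its p-values were adjusted over all 33734 probes. None of the 14 probes passed at an adjusted p under 0.05, against a background of 0.00593% of all tested probes, which is 2 probes. At an unadjusted p under 0.05 there was 1 of the 14 probes, for Casp1, where the share over all tested probes was 25.5%. The mean was higher in MOTS-c spleens for 12 of the 14 probes, where the share over all tested probes was 52.7%. Several of these probes read the same gene, so the 12 are not independent observations.

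The samples differed in ways that the values below should be read against. Vehicle 1 had the lowest level of all 6 arrays for 10 of the 14 probes, and it was the lowest array for 29.8% of all tested probes. Vehicle 1 and vehicle 2 were on slide 1 and the other 4 arrays on slide 2, so a comparison within a slide has vehicle 3 as its only vehicle array. Spleen markers were present: all 10 B cell markers, all 12 T cell markers and all 9 markers of red pulp and marginal zone macrophages were tested. The mean level of the T cell markers was 2.83, 2.74 and 2.66 in MOTS-c 1 to 3, against 0.85, 2.20 and 2.36 in vehicle 1 to 3. The erythroid markers averaged 2.74, 2.91 and 2.63 in MOTS-c samples and 4.43, 3.57 and 4.09 in vehicle samples. For all 12 erythroid and all 10 cell cycle markers every MOTS-c value lay below every vehicle value, against 18% of all tested probes. None of these markers passed after adjustment in limma's test (smallest adjusted p 0.0807). For 11 of the 12 T cell markers every MOTS-c value lay above every vehicle value, against 16.6% of all tested probes. Markers of pancreatic acinar cells, a tissue that adjoins the spleen, averaged -3.55, -4.53 and -1.42 in MOTS-c samples and -0.04, -3.35 and 3.31 in vehicle samples. In whole spleen RNA, fewer cells of a type and less transcript per cell cannot be told apart, and the part of these differences in the results below was not tested.

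The probes that the results turn on are shown by a stretch of 30 of their 60 bases, 5′ to 3′ in the direction of the transcript, as listed in the authors' deposited table. Capitals mark the 29 bases that the printed stretches of 2 Csf1 probes have in common, and the other stretches are in lower case. Positions follow the array's design, which uses mm9.
Casp1 A_55_P1990944, chr9:5307206-5307235, plus strand: ctatgctgagaatcgtgccaataagaagcc
Pycard A_51_P438821, chr7:135136271-135136300, minus strand: acctgcaaggactccctcctccaggccttg
Il1b A_51_P212782, chr2:129190377-129190406, minus strand: aggttcctataatatggatgagaattttta
Il1b A_66_P114500, chr2:129190910-129190939, minus strand: ggaaaagcggtttgtcttcaacaagataga
Il1b A_55_P2720183, chr2:129195495-129195524, minus strand: aggagctatcacttgaccacatctgttttc
Csf1 A_51_P195506, chr3:107544363-107544392, minus strand: tgtggggcttacttagccttctggttacag
Csf1 A_55_P2017914, chr3:107548550-107548579, minus strand: AGCTGCATCATATATTGTCATATGTTGAGc
Csf1 A_55_P2169669, chr3:107548551-107548580, minus strand: cAGCTGCATCATATATTGTCATATGTTGAG
These stretches show what each value can and cannot resolve. The last 2 Csf1 probes overlap by 31 of their 60 bases, so their 2 readings are not independent of each other. The remaining Csf1 probe lies 4128 bases further towards the 3′ end of the gene. It is listed under another transcript record than the overlapping pair, so it and the pair may not read the same transcript. The Il1b probes cover 3 separate places: 473 bases lie between the 2 nearest the 3′ end, and 4525 bases separate the middle probe from the one nearest the 5′ end. Whether a probe lies in coding sequence or in an untranslated region was not determined, because no genome of that build was used.

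**Figure D1:**
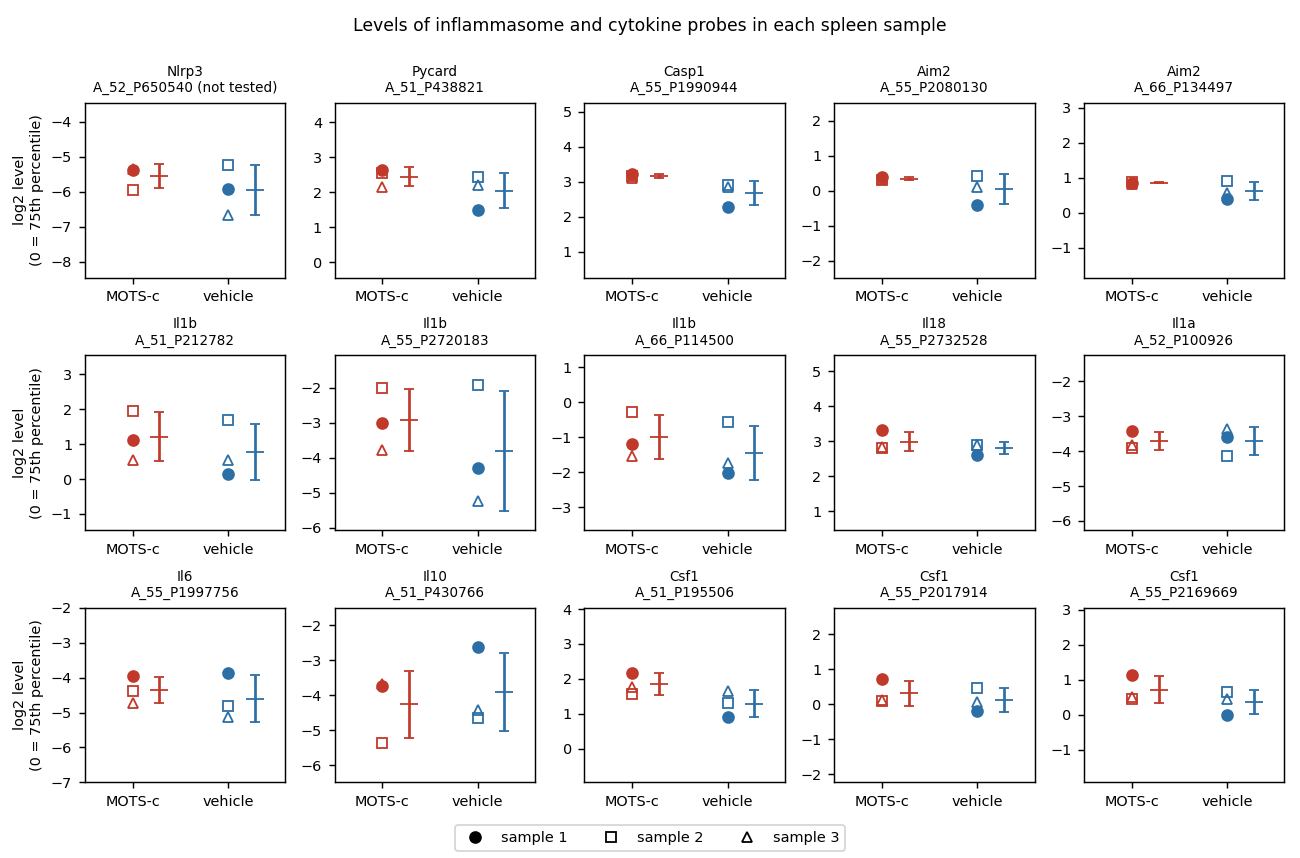
Log2 level (0 is the array's 75th percentile) of the 15 inflammasome and cytokine probes that were well above background on at least 1 array, one panel a probe, with MOTS-c left of vehicle. Symbols are single samples (filled circle, sample 1; square, sample 2; triangle, sample 3), bars are mean ± SD, n = 3, and every panel spans the same number of log2 units; in the Casp1 panel the 3 MOTS-c samples sit between 3.10 and 3.24, all above the vehicle samples.

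Among the sensors, Nlrp3 was near the detection limit and Aim2 was well measured. Nlrp3, which responds to membrane damage, crystals and extracellular ATP, had 1 probe. It was well above background in MOTS-c 1 and 3 and in vehicle 2, so it was in 2 of 3 MOTS-c arrays and 1 of 3 vehicle arrays and was not tested. Its log2 levels were -5.38, -5.96 and -5.35 in MOTS-c samples and -5.93, -5.25 and -6.67 in vehicle samples, from processed signals of 14.2 to 22.3 and of 8.28 to 21.9. The groups overlap, and a difference in Nlrp3 was not detectable at this signal.

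Aim2, the sensor of double-stranded DNA in the cytosol, had 2 probes at separate places on chromosome 1. The brighter one read 0.86, 0.88 and 0.83 in MOTS-c samples and 0.38, 0.90 and 0.55 in vehicle samples. The other read 0.40, 0.30 and 0.34 in MOTS-c samples and -0.40, 0.43 and 0.12 in vehicle samples. On both probes vehicle 2 was the highest array, vehicle 1 was the lowest, and the 3 MOTS-c samples were closer together than the 3 vehicle samples. The differences were 0.25 ± 0.17 and 0.30 ± 0.22 (SE), with adjusted p-values of 0.374 and 0.411. Their 95% intervals ran from -0.15 to 0.65 and from -0.23 to 0.82, so they leave room for little or no difference as well as for a level 1.77-fold higher. Without vehicle 1 the values were 0.13 and 0.07.

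Pycard encodes ASC, the adaptor that links sensors to caspase-1. It read 2.63, 2.56 and 2.14 in MOTS-c samples, against 1.48, 2.43 and 2.20 in vehicle samples. MOTS-c 3 lay below vehicle 2 and vehicle 3, so the groups overlap, and vehicle 1 was the lowest array. The difference was 0.40 ± 0.27 (SE), 1.32-fold, with a 95% interval from 0.85-fold to 2.06-fold and an adjusted p of 0.366. It was 0.12 without vehicle 1 and 0.24 with slide as a block.

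Casp1 encodes caspase-1, the protease that matures interleukin-1β and interleukin-18. Its levels were 3.24, 3.17 and 3.10 in MOTS-c samples and 2.28, 2.91 and 2.84 in vehicle samples. Every MOTS-c value lay above every vehicle value, and Casp1 was the only one of the 14 probes whose groups did not overlap, against 34.7% of all tested probes. All MOTS-c values lay above all vehicle values for 16.6% of tested probes. The MOTS-c mean was 3.17 ± 0.07 and the vehicle mean 2.68 ± 0.34 (SD, n = 3 each). The difference was 0.49 ± 0.20 (SE), a 1.41-fold higher level with a 95% interval from 1.02-fold to 1.94-fold. Its p was 0.0409 before and 0.180 after adjustment in limma's test, so Casp1 did not pass. The difference was smallest without vehicle 1, at 0.30 (adjusted p 0.307), and largest among the left-out arrays without vehicle 2, at 0.61 (adjusted p 0.130). Blocking on slide gave 0.33 (adjusted p 0.730). In the authors' deposited table Casp1 has a fold of 1.54 with an adjusted p of 0.382.

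**Figure D2:**
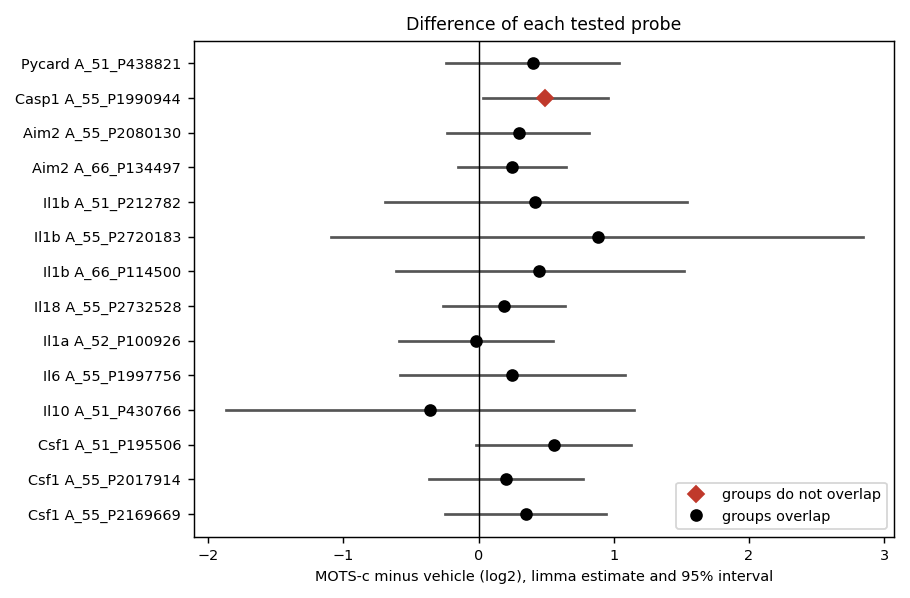
Difference MOTS-c minus vehicle (log2) of each of the 14 tested probes, as limma's estimate with its 95% interval, n = 3 each. The red diamond marks Casp1, the only probe whose groups do not overlap and whose interval, 0.03 to 0.96, lies above 0; the widest interval is that of the Il1b probe nearest the 5′ end of the gene.

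Il1b encodes the precursor of interleukin-1β, the main inflammatory product of caspase-1. Its brightest probe read 1.11, 1.95 and 0.55 in MOTS-c samples and 0.13, 1.68 and 0.54 in vehicle samples. The middle probe read -1.18, -0.27 and -1.52 in MOTS-c samples and -2.03, -0.56 and -1.74 in vehicle samples. The probe nearest the 5′ end read -3.00, -2.01 and -3.78 in MOTS-c samples and -4.29, -1.91 and -5.23 in vehicle samples. All 3 probes put MOTS-c 2 and vehicle 2 highest, so the spread within each group was seen at separate places in the gene. The probe nearest the 5′ end is listed under another transcript record than the others, so they may not read the same transcript. The groups overlap on each of them. The differences were 0.42 ± 0.47, 0.45 ± 0.45 and 0.88 ± 0.84 (SE), with adjusted p-values of 0.582, 0.535 and 0.516. For the brightest probe the 95% interval ran from 0.62-fold to 2.91-fold, so a moderately lower level and one more than 2-fold higher both lie within it. The value for that probe was 0.87 without vehicle 2 and 0.05 without MOTS-c 2, the 2 arrays with the most Il1b. For the probe nearest the 5′ end it was 1.82 without vehicle 2, 0.17 without vehicle 3 and 2.30 with slide as a block. With that block vehicle 3, the lowest array, is in effect the only vehicle sample. That probe was dim, with processed signals of 66.3 to 219 in MOTS-c samples and 34.4, 221 and 22.4 in vehicle 1 to 3. With normexp background correction its difference was 0.319 before the 75th percentile and 0.385 before quantile normalization.

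Neutrophils and monocytes are usual sources of Il1b. The mean of the 12 neutrophil markers was 3.20, 3.45 and 1.5 in MOTS-c samples and 1.5, 0.94 and 2.73 in vehicle samples. MOTS-c 2 was highest for both the neutrophil markers and the brightest Il1b probe, while vehicle 2 was lowest for those markers and second highest on that probe. The 12 monocyte and macrophage markers averaged 3.01, 2.91 and 2.74 in MOTS-c samples and 2.38, 2.76 and 2.74 in vehicle samples. Vehicle 1 was lowest for them, as for the brightest Il1b probe, with MOTS-c 3 and vehicle 3 next for both. Vehicle 2, second highest on that probe, was close to those arrays for the monocyte and macrophage markers. MOTS-c 1 was highest for these markers, but MOTS-c 2 was highest on that probe. The part of neutrophils and monocytes in the Il1b values was not tested.

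Il1a encodes interleukin-1α, an alarmin of the same receptor that needs no caspase-1 to be active. Its probe lies 64293 bases from the nearest Il1b probe on chromosome 2. It read -3.42, -3.91 and -3.83 in MOTS-c samples and -3.60, -4.15 and -3.37 in vehicle samples, and the groups overlap fully. The difference was -0.02 ± 0.24 (SE), with a 95% interval from 0.67-fold to 1.47-fold (adjusted p 0.970). Vehicle 2 had the lowest Il1a level and the second highest on the brightest Il1b probe.

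Il18 encodes the second cytokine that caspase-1 matures, one that macrophages and epithelial cells keep in store as a precursor. Its levels were 3.32, 2.82 and 2.84 in MOTS-c samples, against 2.60, 2.90 and 2.90 in vehicle samples. MOTS-c 1 was the highest and vehicle 1 the lowest array, and the other 4 lay between 2.82 and 2.90. The difference was 0.19 ± 0.19 (SE), with a 95% interval from 0.84-fold to 1.56-fold and an adjusted p of 0.536. It was 0.03 without MOTS-c 1.

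The cytokines outside the inflammasome were dim, apart from Csf1. Il6, the acute-phase cytokine, had 2 probes. One was not well above background on any of the 6 arrays and was not tested. The other read -3.96, -4.39 and -4.72 in MOTS-c samples and -3.86, -4.82 and -5.14 in vehicle samples, with processed signals of 34.6 to 57.9 in MOTS-c samples and 23.8 to 46.3 in vehicle samples. Vehicle 1 was the highest array and vehicle 3 the lowest, so the vehicle samples span the MOTS-c ones. The difference was 0.25 ± 0.35 (SE), with an adjusted p of 0.664, and its 95% interval ran from 0.67-fold to 2.12-fold. It was 0.63 without vehicle 1, 0.79 with slide as a block and -0.018 without vehicle 3.

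Il10 encodes the main anti-inflammatory cytokine of the group and was the only brightest probe other than that of Il1a with a lower mean in MOTS-c spleens. Its levels were -3.73, -5.37 and -3.68 in MOTS-c samples and -2.62, -4.64 and -4.43 in vehicle samples. Vehicle 1 was the highest array and MOTS-c 2 the lowest, where the probe was not well above background. The difference was -0.36 ± 0.64 (SE), with a 95% interval from 0.27-fold to 2.22-fold and an adjusted p of 0.734. Its sign turned to 0.28 without vehicle 1, to 0.19 without MOTS-c 2 and to 0.17 with slide as a block.

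Csf1 encodes the growth factor that maintains monocytes and macrophages, and it was the cytokine with the smallest p. The probe nearest the 3′ end read 2.18, 1.58 and 1.77 in MOTS-c samples and 0.90, 1.30 and 1.66 in vehicle samples. MOTS-c 2 lay below vehicle 3, and otherwise the MOTS-c samples were higher. The difference was 0.56 ± 0.25 (SE), 1.47-fold, with a 95% interval from 0.99-fold to 2.20-fold, a p of 0.0568 and an adjusted p of 0.207 in limma's test. The overlapping pair, listed under another transcript record, gave smaller values, 0.20 ± 0.24 and 0.35 ± 0.25, with adjusted p-values of 0.614 and 0.399. On that pair vehicle 2 was above MOTS-c 2 and 3, whereas on the 3′ probe it was below them. The difference of the 3′ probe was 0.36 without vehicle 1, 0.39 without MOTS-c 1 and 0.18 with slide as a block. Csf1r, the receptor of Csf1 and a marker of monocytes and macrophages, read 6.17, 6.06 and 5.82 in MOTS-c samples and 5.85, 5.87 and 6.05 in vehicle samples, a difference of 0.09 ± 0.16 (adjusted p 0.717).

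**Figure D3:**
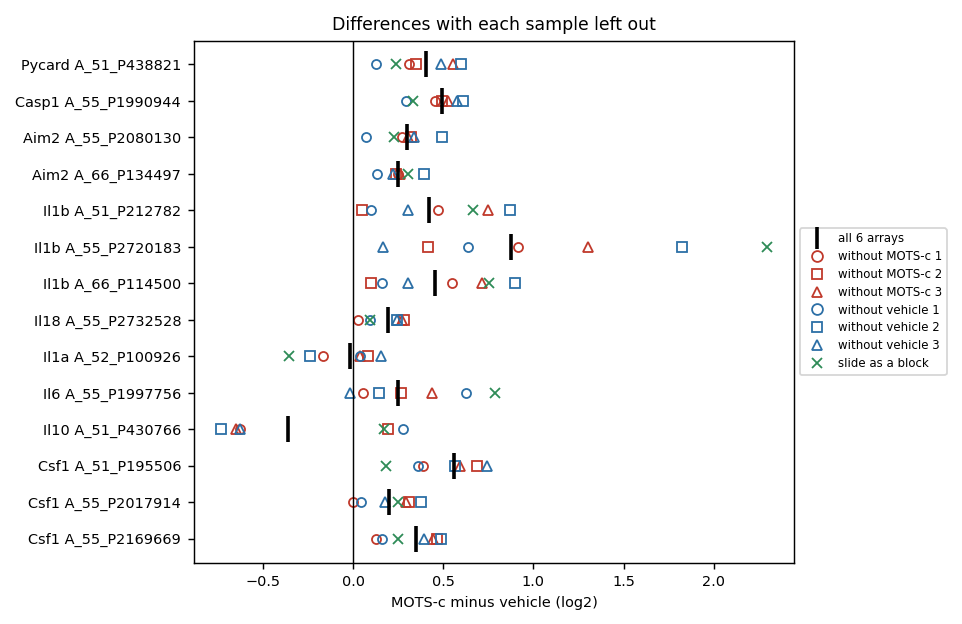
Difference MOTS-c minus vehicle (log2) of each tested probe over all 6 arrays (black bar), with each sample left out in turn (red, a MOTS-c sample; blue, a vehicle sample; circle, square and triangle, samples 1, 2 and 3) and with slide as a block (green cross). All probes of Pycard, Casp1, Aim2, Il1b, Il18 and Csf1 stayed above 0 in all of these, except Csf1 A_55_P2017914, at -0.002 without MOTS-c 1. The Il1b probe nearest the 5′ end ran from 0.17 to 2.30, and Il10, Il1a and Il6 lay on both sides of 0.

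Genes that surround these 10 in their pathways were described in the same fit, each by its brightest tested probe. Of 101 listed genes 79 were tested, and none passed over all probes; the smallest adjusted p was 0.105. At an unadjusted p under 0.05, 20 were higher and 1 lower in MOTS-c spleens, or 26.6% of the 79, against 25.5% of all tested probes. The MOTS-c values lay all above the vehicle values for 25 genes and all below for 3, where the shares over all tested probes were 16.6% and 18%. The median difference of the 79 was 0.24, against 0.03 over all tested probes. For many of these genes vehicle 1 was again the lowest array, as the values below show.

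The inflammasome list had 23 tested genes, of which 21 had a higher mean in MOTS-c spleens, with a median difference of 0.37 that was 0.12 without vehicle 1. Gsdmd, whose cleaved product forms the pore of pyroptosis, read 1.95, 2.01 and 1.92 in MOTS-c samples and 0.56, 1.48 and 1.44 in vehicle samples. Its difference was 0.80 ± 0.26 (SE, adjusted p 0.131), and it was 0.50 without vehicle 1. Panx1, a channel that releases ATP, differed by 0.71 ± 0.23, and P2rx7, the ATP receptor upstream of Nlrp3, by 0.53 ± 0.18, with adjusted p-values of 0.135 and 0.144. Without vehicle 1 Panx1 was at 0.46 and P2rx7 at 0.36, and the other probes of P2rx7 gave 0.24 to 0.29. The groups of these 3 genes do not overlap. Of the other sensors, Nlrp1b differed by 0.67 ± 0.24 and Nlrc4, which with NAIP proteins detects bacterial flagellin and secretion systems, by 0.44 ± 0.19, and within slide 2 these were 0.24 and 0.16. Casp4, the mouse caspase-11 that senses lipopolysaccharide, differed by 0.21 ± 0.18, Txnip, which can bind Nlrp3, by 0.17 ± 0.20, and Nek7, a partner of Nlrp3, by 0.04 ± 0.14. None of these 5 passed, with adjusted p-values from 0.157 to 0.885. The 2 genes of the list with a lower mean in MOTS-c spleens were also sensors, Nlrp1a at -0.28 ± 0.21 and Naip5 at -0.08 ± 0.15, with adjusted p-values of 0.412 and 0.745, and each has a second probe with the opposite sign, at 0.51 and 1.01.

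The AIM2-like receptors, a cluster of related interferon-induced genes, had 5 of 10 genes tested, all 5 with a higher mean in MOTS-c spleens and a median of 0.70 (0.43 without vehicle 1). They are a family of similar sequences, so probes may read more than 1 member. Ifi204 read 3.08, 2.93 and 3.10 in MOTS-c samples and 2.62, 2.70 and 2.56 in vehicle samples, so that vehicle 1 did not stand apart. Its difference was 0.41 ± 0.14 (SE, adjusted p 0.140), and it was 0.41 without vehicle 1. Mndal differed by 0.70 ± 0.25 and Ifi209 by 1.65 ± 0.59, with adjusted p-values of 0.147 and 0.152. Mndal was at 0.43 without vehicle 1. For Ifi209, vehicle 1 read -2.52, against -0.56 and 0.06 in the other vehicle samples, and the difference was 0.90 without it.

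In the interleukin-1 family, 14 of 18 tested genes had a higher mean in MOTS-c spleens, with a median of 0.35 that was 0.23 without vehicle 1. Irak3, an inhibitory kinase-like protein of the receptor complex, read 0.03, -0.25 and 0.06 in MOTS-c samples and -1.20, -0.94 and -0.45 in vehicle samples. Its difference was 0.81 ± 0.22 (SE, adjusted p 0.105), and it was 0.64 without vehicle 1 and 0.40 within slide 2. The other probes of Irak3 gave 0.27 to 0.72. Il1rn, the secreted antagonist of the interleukin-1 receptor, read -2.71, -2.23 and -2.56 in MOTS-c samples and -4.51, -2.89 and -3.45 in vehicle samples, a difference of 1.12 ± 0.39 (adjusted p 0.145) that was 0.67 without vehicle 1. Traf6, a ubiquitin ligase that carries the signal onward, differed by 0.53 ± 0.18 (adjusted p 0.143), though its other probes ran from -0.16 to 0.41. Il1r1, the signalling receptor, differed by -0.32 ± 0.28 and Il1r2, the decoy receptor, by 0.34 ± 0.47, and for both the groups overlap. Il18r1, a chain of the interleukin-18 receptor found on T and NK cells, differed by 0.67 ± 0.30 (adjusted p 0.216), and it was 0.30 without vehicle 1. That array was lowest for the T cell markers, but also for the B cell and dendritic cell markers, and their part was not tested. Il18bp, which neutralises interleukin-18, differed by 0.12 ± 0.35. The lower gene at an unadjusted p under 0.05 was Il1rl2, a receptor of interleukin-36, at -1.08 ± 0.39 (adjusted p 0.152). It is named because it was the only one of the 79 in that direction.

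**Figure D4:**
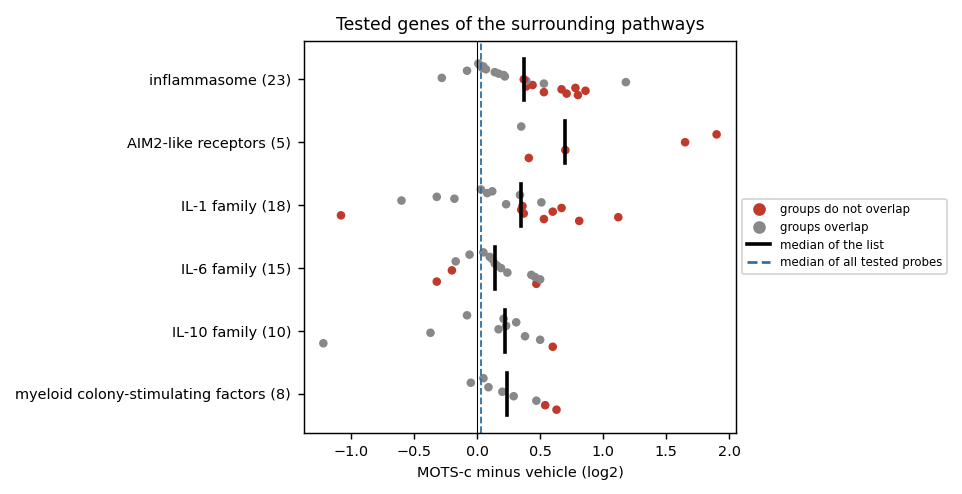
Difference MOTS-c minus vehicle (log2) of each of the 79 tested genes of the 6 surrounding lists (number tested in brackets), with the median of each list as a black bar and the median over all tested probes, 0.03, as a dashed line. Red points are genes whose MOTS-c and vehicle values do not overlap; the medians run from 0.14 for the interleukin-6 family to 0.70 for the AIM2-like receptors.

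The remaining lists cover the receptors and signal carriers of Il6, Il10 and Csf1. In the interleukin-6 family, 11 of 15 tested genes had a higher mean in MOTS-c spleens, with a median of 0.14. Il6ra, the ligand-binding receptor chain, read 4.10, 3.77 and 3.83 in MOTS-c samples and 3.31, 3.37 and 3.60 in vehicle samples, a difference of 0.47 ± 0.16 (SE, adjusted p 0.144) that was 0.42 without vehicle 1. Il6st, the shared signalling chain gp130, differed by 0.19 ± 0.17, Clcf1, a cytokine of the family, by 0.50 ± 0.29, and Jak2, a receptor-bound kinase, by -0.32 ± 0.18, with adjusted p-values from 0.293 to 0.493. In the interleukin-10 family, 7 of 10 tested genes had a higher mean, with a median of 0.22. Tyk2, a kinase of the receptor, differed by 0.60 ± 0.24, Maf, a transcription factor that induces Il10, by 0.50 ± 0.31, and Il10ra, the ligand-binding receptor, by 0.17 ± 0.14, with adjusted p-values of 0.177, 0.328 and 0.469. Tyk2 was at 0.36 without vehicle 1, and Maf turned to -0.07 within slide 2. Il20rb, a receptor chain for interleukins related to Il10, read -2.27, -2.71 and -2.35 in MOTS-c samples and -0.46, -0.60 and -2.61 in vehicle samples. Its difference of -1.22 ± 0.54 (adjusted p 0.209) thus rested on vehicle 1 and 2, and it was 0.17 within slide 2. Without vehicle 3 it was -1.91 (adjusted p 0.0493), the only call of a listed gene with any array left out. Of the myeloid colony-stimulating factors and their receptors, 7 of 8 tested genes had a higher mean, with a median of 0.24. Csf2ra, a receptor chain for GM-CSF, differed by 0.54 ± 0.22, Spi1, the transcription factor PU.1, by 0.63 ± 0.24, and Il34, the other ligand of Csf1r, by 0.47 ± 0.22, with adjusted p-values of 0.186, 0.169 and 0.232. Without vehicle 1 these were 0.32, 0.40 and 0.26. Of the 22 listed genes that were not tested, 13 had a named probe that was too dim, among them the cytokines Il19, Il20, Il22, Il24, Csf2 and Csf3.

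For each of the 9 tested genes, the 3 most similar of the 182 tested genes on the pathway and cell marker lists were found by Pearson's r over the 6 log2 levels, as a description of arrays that share their scaling. Casp1 was most similar to Pstpip1, an adaptor that binds pyrin, with r = 0.994, to Gsdmd with 0.990 and to the T cell kinase Lck with 0.987. Pycard was most similar to Ebi3 (0.984), Tyrobp, a myeloid adaptor (0.978), and the B cell marker Ms4a1 (0.974). Aim2 was most similar to Il1rap (0.988), Ifi208 (0.975) and the B cell receptor regulator Cd22 (0.970). For all 3 of these the nearest genes included a lymphocyte marker beside members of the pathway, and for Pycard also the myeloid adaptor Tyrobp. Vehicle 1 is low in each of the 3, and the part of any cell type in these likenesses was not tested. Il1b was nearest to Il18rap (0.936), the Fc receptor Fcgr1 (0.912) and Clec9a (0.891). Il18 was nearest to Txnip (0.986), Il6st (0.966) and Nlrx1 (0.962), and Csf1 to Jak1 (0.983), the endothelial marker Pecam1 (0.954) and Il6ra (0.944). Those of Il1a included Il18bp (0.941) and Vcam1 (0.855), and Il10 was nearest to Il1r1 (0.907), Ninj1 (0.901) and the endothelial marker Cdh5 (0.876). The dim Il6 had no close match, with Ms4a7 at 0.650, Osm at 0.613 and Cntfr at 0.573. With only 6 arrays and many genes compared, high values of r arise readily.

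**Figure D5:**
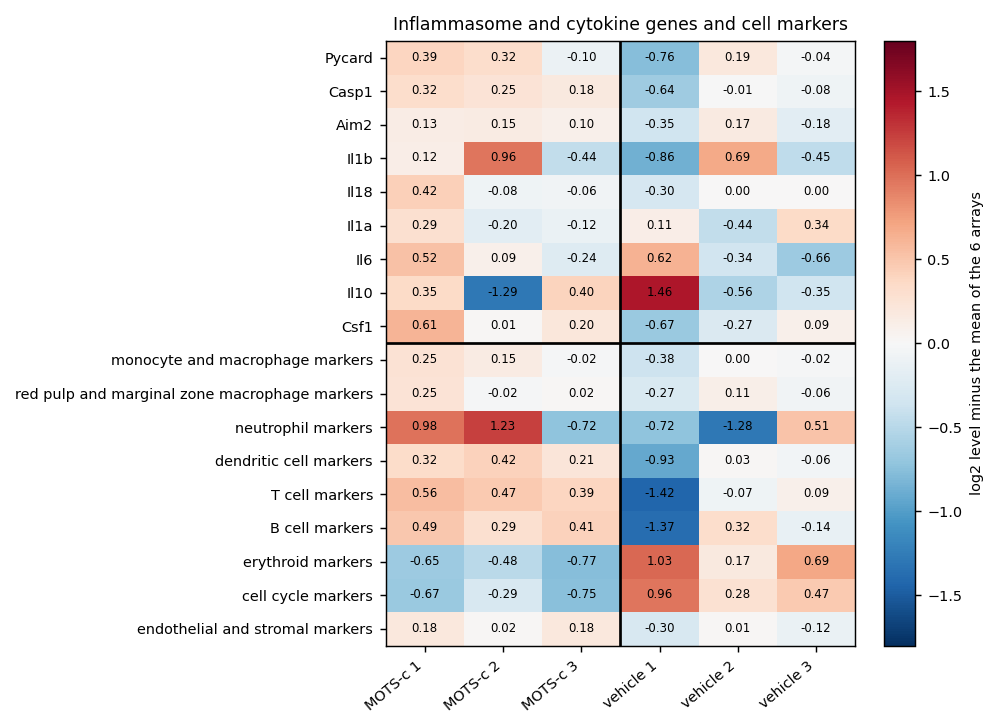
Log2 level of the brightest probe of each tested gene (above the line) and mean level of each spleen cell marker list (below it), each as a deviation from the mean of the 6 arrays, with MOTS-c samples left of vehicle samples. Pycard, Casp1, Aim2, Il1b, Il18 and Csf1 are lowest in vehicle 1. So are the T cell, B cell, dendritic cell, monocyte, red pulp and marginal zone macrophage, and endothelial and stromal markers. Il6, Il10 and the erythroid and cell cycle markers are highest there.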

How the data were processed

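Per the file headers, spot intensity values came from Agilent Feature Extraction, version 11.0.1.1, with background subtracted within the array and no normalization between arrays. The authors' deposited table holds log2 values of those signals for 31692 probes, with the same distribution on all 6 arrays as after quantile normalization. It also holds the authors' signed fold, used as a score, and their p-value, raw and Benjamini-Hochberg adjusted; their test is not given in the sources used here.

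From the scanner files, control spots and 97 to 145 outlier spots per array were left out, spots of a probe were averaged as log2, and the 75th percentile (signal 671 to 913) was subtracted. Between 61.8% and 64.0% of spots were well above background and 0 were saturated; the 3 arrays of a group limit the precision. Symbols came from gene IDs (26241 probes), accessions (11826) or the authors' deposited table (910), for 38977 of 56605 probes. The test was limma 3.58.1 in R 4.3.3 (lmFit and eBayes, two-sided, Benjamini-Hochberg over 33734 probes, threshold 0.05). The smallest p an exact permutation test of 3 against 3 allows is 0.1, so none was run. On simulated data of 33734 probes, limma called 24 of 100 probes with a log2 change of 1 and 71 of 100 with a change of 2. It also called 5 probes without change. The simulated probes varied independently, with no shift shared by the probes of an array, so these rates need not hold for the real arrays. Named are all probes of the 10 genes, the 3 genes of each pathway list with the smallest p, and a set panel of pathway genes; Il1rl2, Nlrp1a and Naip5 were added after their values were seen. Members and lists were chosen with earlier results of these data known. Alternatives changed the normalization, the background correction, the filter, the probe rule, eBayes, the slide and replicate blocks, and the arrays included. One gene among those most similar to Il1a is not reported here.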

Additional observations from a re-analysis of the deposited data

How the results depend on the processing

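None of the 14 probes passed in any of the 19 alternatives, where the smallest adjusted p in limma's test was 0.104. With limma run on the authors' normalized values none passed, and 2 of 13 had an unadjusted p under 0.05. In the authors' own comparison, whose test is not given, the smallest raw p of these probes was 0.0991, for Csf1 A_51_P195506. Of 254 values of these probes under the alternatives, 243 kept their direction. Il10 turned to 0.17 with slide as a block and, in an alternative chosen after seeing the data, on slide 2 alone, and ran from -0.73 to 0.28 with single arrays left out. Il1a ran from -0.24 to 0.15 with single arrays left out, turning to 0.08 and 0.04 without MOTS-c 2 and 3 and to 0.04 and 0.15 without vehicle 1 and 3. Il6 turned to -0.004 with normexp before the 75th percentile and ran from -0.018 to 0.63 with single arrays left out, and the Csf1 probe A_55_P2017914 ran from -0.002 to 0.38. The cause of these reversals was not tested. The count of 2 probes called over all probes was 645 with normexp before the 75th percentile, 635 with a trend in eBayes, 4 on slide 2 alone, 1 with slide as a block and 0 with normexp before quantile normalization, the authors' values, no filter, probes well above background on all 6 arrays, or the replicate block, where 8808, 8198, 9066, 8142 and 7189 probes had an unadjusted p under 0.05. With single arrays left out it ran from 0 (without MOTS-c 3 or vehicle 1) to 1033 (without vehicle 2), and was 65 without vehicle 3. The count of listed pathway genes called stayed at 0, other than 1, Il20rb, without vehicle 3. The replicate block rests on the title numbers (the descriptions of vehicle 3 and MOTS-c 3 give other numbers), which did not pair the samples: same-numbered deviations correlated at -0.171, 0.006 and -0.090; 7189 probes had an unadjusted p under 0.05 with it and 8600 without. Both normexp settings used median signals, as the files hold no mean signals, so normexp on mean signals was not run and the median settings, too, were chosen after seeing the data. Dim probes (Nlrp3, Il6, Il10, Il1a and the Il1b probe nearest the 5′ end) limit what these arrays can show.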
